A study of Homo sapiens with 6 samples.

Results

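The genes of G2 and mitosis described here are 48 cyclins, mitotic kinases, spindle checkpoint proteins, kinesins, centromere proteins and spindle or chromosome proteins, chosen by symbol. They and the comparison lists were chosen with earlier results of these data known, so counts set beside all genes are descriptive. Every probe set that the platform's annotation assigns to 1 of these symbols alone was taken, which gave 89 probe sets for the 48 genes, out of 19775 genes with such a probe set. Gene expression was measured on 6 Affymetrix U133 Plus 2.0 arrays of DMS-53, a human small cell lung cancer line, with 2 arrays per group, numbered by the set number in the sample titles. The groups were cells in RPMI medium with 25 µM Dp44mT, a thiosemicarbazone that enters cells and binds both iron and copper, cells in RPMI medium with 250 µM DFO (desferrioxamine), an iron-binding siderophore, and cells in RPMI medium alone as the control. Exposure was for 24 h in each group. All 6 arrays come from 1 cell line, and the labels leave unsaid whether the 2 arrays of a group are of separate cultures. The spread behind each p-value is that between the arrays and may therefore be technical.

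A cell enters mitosis when CDK1, bound to cyclin B, is switched on by CDC25 phosphatases and assisted by Polo and Aurora kinases. The spindle checkpoint then holds the anaphase-promoting complex (APC/C), a ubiquitin ligase, until every kinetochore is attached to microtubules, after which cyclin B and securin are destroyed. Most genes of this machinery are transcribed late in the cell cycle and are silent in resting cells. Their transcription is controlled by the MuvB complex, which binds the cell cycle homology region (CHR) in their promoters through LIN54, as a repressor with p130 and E2F4 (the DREAM complex) and as an activator with B-MYB and FOXM1. The factor NF-Y binds CCAAT boxes in the same promoters. Ribonucleotide reductase, which supplies DNA synthesis, needs iron, and iron chelators are known to stop tumour cells from dividing.

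Promoter windows of 300 bases, from 250 before to 50 after a gene's start, were available from RefSeq (GRCh38.p14) for 41 of the 48 genes. They are shown because these windows share letters that the choice of the genes did not use. The windows below belong to 4 of the genes with the smallest p in the comparison of Dp44mT with control, and capitals mark every CHR-type motif and every CCAAT, on either strand. The CHR-type motifs searched were TTTGAA, its known variant TTCGAA and the related word TTTAAA, which was added to the search after the windows had been read.
CCNB1: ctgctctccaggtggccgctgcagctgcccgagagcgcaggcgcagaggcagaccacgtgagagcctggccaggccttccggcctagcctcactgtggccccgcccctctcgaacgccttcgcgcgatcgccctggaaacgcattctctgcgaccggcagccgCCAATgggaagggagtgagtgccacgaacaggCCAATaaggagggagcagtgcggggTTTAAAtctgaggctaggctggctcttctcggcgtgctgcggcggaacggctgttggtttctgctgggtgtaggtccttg
KIF20A: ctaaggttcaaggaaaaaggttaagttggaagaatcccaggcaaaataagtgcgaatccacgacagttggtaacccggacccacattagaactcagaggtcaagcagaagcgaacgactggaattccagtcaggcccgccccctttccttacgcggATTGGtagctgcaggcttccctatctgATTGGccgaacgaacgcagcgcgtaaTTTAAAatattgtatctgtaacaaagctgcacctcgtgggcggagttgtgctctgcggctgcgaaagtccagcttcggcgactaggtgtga
DLGAP5: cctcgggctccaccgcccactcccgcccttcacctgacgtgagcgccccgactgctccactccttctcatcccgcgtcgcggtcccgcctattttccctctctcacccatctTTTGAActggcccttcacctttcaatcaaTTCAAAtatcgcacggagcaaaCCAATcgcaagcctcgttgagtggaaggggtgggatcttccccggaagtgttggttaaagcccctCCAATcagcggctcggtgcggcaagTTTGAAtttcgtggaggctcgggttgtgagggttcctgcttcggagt
SPC25: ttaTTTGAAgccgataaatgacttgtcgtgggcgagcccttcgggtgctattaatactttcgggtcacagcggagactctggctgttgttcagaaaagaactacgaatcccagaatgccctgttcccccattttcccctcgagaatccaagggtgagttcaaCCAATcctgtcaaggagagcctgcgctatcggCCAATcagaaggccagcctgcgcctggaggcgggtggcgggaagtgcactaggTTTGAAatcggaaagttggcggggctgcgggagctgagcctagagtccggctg
Positions are those of a motif's first base along the printed strand, with the start site as 0. The window of CCNB1 (chr5:69166900-69167199, plus strand) held CCAAT at −87 and −55 and TTTAAA at −30. In that of KIF20A (chr5:138178862-138179161, plus strand), CCAAT stood on the other strand at −94 and −67 and TTTAAA at −41. DLGAP5 (chr14:55191536-55191835, minus strand) had TTTGAA at −138 and 3 and, on the other strand, at −109, with CCAAT at −87 and −22. SPC25 (chr2:168890381-168890680, minus strand) had TTTGAA at −247 and −3 and CCAAT at −88 and −56.

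Across the 41 windows, TTTGAA was present on either strand in 30 (73.2%), against 15.4% of all 27305 windows, 1 a gene. TTCGAA was found in 2 of 41 (4.88%, against 1.45% of all windows) and TTTAAA in 14 (34.1%, against 12.3%). At least 1 of these 3 motifs, whose matches may share letters, stood in 36 of 41 windows (87.8%), as compared to 25.3% of all windows. TTTAAA was added after windows had been read, so this pooled share is not independent of them. CCAAT was present in 30 of 41 (73.2%, against 35.7%) and at least 2 times in 19 (46.3%, against 11.3%). Among 24 genes of G1/S and DNA replication, 4 windows (16.7%) held 1 of the 3 CHR-type motifs, while 16 (66.7%) held CCAAT. At least 2 copies of CCAAT stood in 10 of those 24 (41.7%). Among 37 other genes of G2 and mitosis, TTTAAA stood in 4 windows (10.8%), less than the share of all windows, while 32 (86.5%) held at least 1 of the 3 motifs and 25 (67.6%) held CCAAT. Of these 37, 14 (37.8%) held CCAAT at least 2 times. These shares describe letters in fixed windows, and binding was not measured.

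In median deposited intensity, the Dp44mT arrays had 83.6 and 49.9, those of DFO 85.5 and 63.0, and those of control 88.9 and 88.8. The set 2 arrays of both chelators were thus the dimmest. Values below are log2 normalized intensities, that is log2(intensity + 16) after quantile normalization across the 6 arrays, and a difference is the difference of group means on that scale, which understates the change of dim genes. A gene was represented by its brightest probe set, and all 48 genes passed the filter on low values. For RNA quality, the ACTB probe sets at the 3' end were 1.14 to 1.41 times as bright as those at the 5' end. Epithelial markers (EPCAM, KRT8, KRT18, KRT19 and CDH1) were all tested, with summed normalized intensities of 20767 to 21281 in Dp44mT, 23019 to 23486 in DFO and 20607 to 21178 in control. Of 12 neuroendocrine markers, 11 were tested, with sums of 18713 to 19469 in Dp44mT, 20097 to 20164 in DFO and 24457 to 26916 in control. They did not move together. At an adjusted p under 0.05 in limma's test, ENO2 was higher (2.03 in Dp44mT and 1.74 in DFO) and INSM1 lower (−3.37 and −2.21). The other 9 were not called for either chelator. Of 12 fibroblast markers, 9 were tested and FAP, PDGFRB and SPARC lay below the filter, and their summed normalized intensity ran from 1752 to 3803 in Dp44mT, from 1656 to 3135 in DFO and from 990.5 to 1615 in control. The sums were highest on the set 2 chelator arrays and lowest on control array 2. Endothelial markers (5 of 8 tested, with CDH5, ESAM and CLDN5 below the filter) moved in the same way, from 798 to 2147 in Dp44mT, from 765 to 1751 in DFO and from 454 to 852 in control. Leukocyte markers (5 of 8 tested) summed to between 332 and 453, and their defining gene PTPRC was below the filter. Fibroblast sums in set 1 were 1752 in Dp44mT, 1656 in DFO and 1615 in control. The median difference of the 48 genes in that set was −1.05 for Dp44mT and −0.90 for DFO. In set 2 the sums were 3803, 3135 and 990.5, and the median differences were −1.13 and −1.08. Nothing in the labels says that a set number is a batch, and the part of these markers in the differences was not tested.

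Mitotic genes were lower with both chelators. In Dp44mT, 15 of the 48 genes fell and 0 rose at an adjusted p under 0.05 (limma's moderated test, Benjamini-Hochberg over 16868 genes), where 1.46% of all genes tested were called lower and 1.91% higher. In DFO, 3 of the 48 fell and 0 rose, where 0.0593% of all genes were called lower and 1.04% higher. At an unadjusted p under 0.05, 38 of the 48 were lower in Dp44mT, where 15.9% of all genes were, and 35 in DFO, where 7.59% were. The median difference over the 48 genes was −1.02 in Dp44mT (all genes, 0.03) and −1.06 in DFO (all genes, −0.03). Both Dp44mT arrays lay below both control arrays for 47 of the 48 genes, all but INCENP, where this held for 33.1% of all genes. Both DFO arrays did so for 44, all but CDK1, NUSAP1, SMC4 and NCAPG, where 30% of all genes did. Both comparisons use the same 2 control arrays. Fewer cells in G2 and mitosis and less mRNA in each such cell cannot be told apart in RNA from whole cultures.

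**Figure D1:**
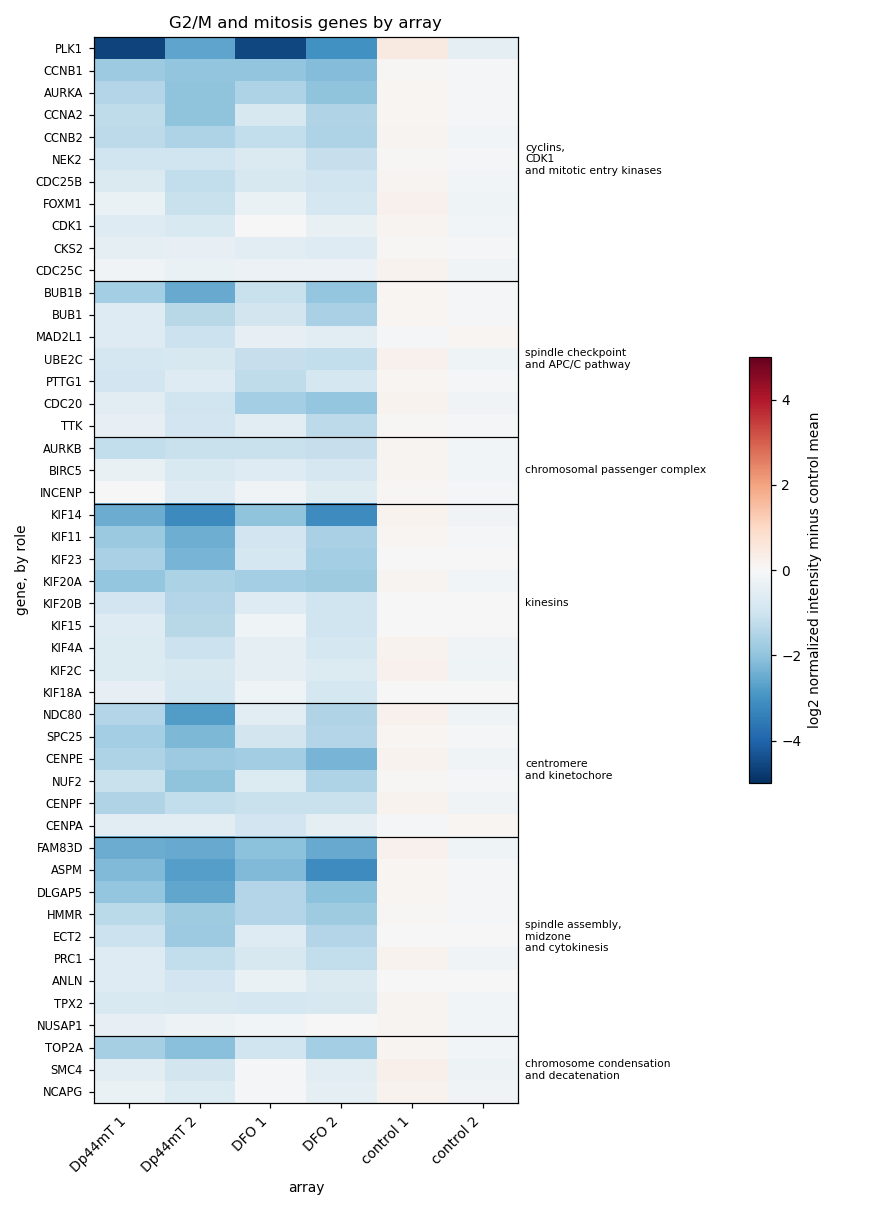
Log2 normalized intensity of the 48 genes on each of the 6 arrays (columns), minus the mean of the 2 control arrays, with genes (rows) grouped by role and ordered by the Dp44mT difference. The chelator columns are blue for nearly every gene, deepest for PLK1, KIF14, FAM83D and ASPM, and palest for CDC25C, INCENP and NUSAP1.

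Among the 11 genes of mitotic entry, 3 fell in Dp44mT and 1 in DFO, with medians of −0.996 and −0.93. CCNB1, which encodes cyclin B1, stood at 9.28 and 9.14 in Dp44mT, 9.15 and 8.95 in DFO and 11.17 and 11.05 in control. It fell by 3.73-fold in Dp44mT (log2 −1.90, SE 0.18, adjusted p = 0.0167) and by 4.17-fold in DFO (log2 −2.06, SE 0.18, adjusted p = 0.0181). The deposited intensities of this probe set were 666 and 298 in Dp44mT, 762 and 350 in DFO and 2590 and 3124 in control, so the groups were also apart before normalization. CCNB2, which encodes another B-type cyclin, stood at 9.06 and 8.82 in Dp44mT, 9.14 and 8.80 in DFO and 10.50 and 10.22 in control, a fall of 2.68-fold in Dp44mT (log2 −1.42, SE 0.22, adjusted p = 0.043). In DFO its difference was −1.39 and did not pass (adjusted p = 0.0743). The kinase AURKA, which acts at spindle poles, stood at 8.66 and 8.11 in Dp44mT, 8.55 and 8.10 in DFO and 10.22 and 9.99 in control. It fell by 3.3-fold in Dp44mT (log2 −1.72, SE 0.28, adjusted p = 0.0467), while the DFO difference of −1.79 did not pass (adjusted p = 0.0717). For all 3 genes, every chelator array lay at least 1 log2 unit below either control array.

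PLK1, the Polo kinase of mitotic entry and centrosome maturation, had the largest differences of all 48 genes and was not called. Its values were 7.73 and 9.70 in Dp44mT, 7.79 and 9.30 in DFO and 12.78 and 11.91 in control. The chelator arrays were all below the control arrays, with those of set 1 below those of set 2. The difference was −3.63 (SE 0.83, adjusted p = 0.0841) in Dp44mT and −3.80 (SE 0.83, adjusted p = 0.156) in DFO. Within set 1 it was −5.06 in Dp44mT and −4.99 in DFO, and within set 2 it was −2.21 and −2.61. The deposited intensities of PLK1 were 212 and 444 in Dp44mT, 270 and 445 in DFO and 7823 and 5166 in control. The set 2 chelator arrays were both the dimmest and those with the highest fibroblast marker sums. The part of the normalization or of those markers in the gap between the sets was not tested. PLK1 was called for both chelators when the array medians were subtracted in place of quantile normalization (adjusted p = 0.0174 in Dp44mT and 0.0219 in DFO) and on the unscaled values (0.0046 and 0.00809), and in Dp44mT also with an intensity trend (0.0445) and without the set 2 chelator arrays (0.0372).

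The other members of this group differed less. CDK1, the kinase itself, stood at 10.51 and 10.36 in Dp44mT, 11.11 and 10.77 in DFO and 11.26 and 11.02 in control. Its DFO arrays overlapped the control arrays (−0.20, adjusted p = 0.715), and the Dp44mT arrays lay below them without passing (−0.71, adjusted p = 0.128). CDC25C, a phosphatase that activates CDK1, had the smallest Dp44mT difference of the group, with 8.06 and 7.92 in Dp44mT, 7.93 and 7.93 in DFO and 8.40 and 8.07 in control. That difference was −0.25 (95% interval from −0.73 to 0.24), and in DFO it was −0.31. Cyclin A2 (CCNA2), CDC25B, the centrosomal kinase NEK2, the CDK-binding subunit CKS2 and the transcription factor FOXM1 had differences between −1.64 and −0.45 in Dp44mT and between −1.15 and −0.58 in DFO, and none of these 5 passed in limma (4 in each chelator at an unadjusted p under 0.05, all but FOXM1).

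Of 9 kinesins, motor proteins that build and elongate the spindle, 3 fell in Dp44mT and 1 in DFO. Their medians were −1.22 and −0.83, and all 9 were lower on both arrays of either chelator than on both control arrays. KIF20A, which carries Aurora B to the spindle midzone, stood at 8.37 and 8.72 in Dp44mT, 8.58 and 8.51 in DFO and 10.43 and 10.15 in control. The fall was 3.34-fold in Dp44mT (log2 −1.74, SE 0.21, adjusted p = 0.0261) and 3.35-fold in DFO (log2 −1.74, SE 0.21, adjusted p = 0.0385). KIF11 (Eg5), which pushes the spindle poles apart, stood at 8.15 and 7.54 in Dp44mT, 9.02 and 8.38 in DFO and 10.07 and 9.91 in control. Its Dp44mT arrays were the lowest, its DFO arrays came next and its control arrays were highest, with a fall of 4.42-fold in Dp44mT (log2 −2.14, SE 0.32, adjusted p = 0.0399) and an uncalled difference of −1.29 in DFO (adjusted p = 0.191). KIF14, a kinesin of cytokinesis, stood at 7.45 and 6.72 in Dp44mT, 7.90 and 6.78 in DFO and 10.07 and 9.76 in control. It fell by 7.13-fold in Dp44mT (log2 −2.83, SE 0.46, adjusted p = 0.0457), and in DFO the difference of −2.57 missed the threshold (adjusted p = 0.0996). KIF18A, which limits the swings of chromosomes on the spindle, had the smallest differences of the group, with 7.47 and 7.03 in Dp44mT, 7.69 and 7.01 in DFO and 7.93 and 7.86 in control. Neither its Dp44mT difference of −0.64 (adjusted p = 0.257) nor its DFO difference of −0.55 (adjusted p = 0.522) passed. The remaining 5 (KIF23 of centralspindlin, the depolymerase KIF2C, KIF4A, KIF15 and KIF20B) ranged from −1.97 to −0.73 in Dp44mT and from −1.28 to −0.59 in DFO.

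In the spindle checkpoint and APC/C group, none of 7 genes was called for either chelator in limma, although 6 of 7 were lower at an unadjusted p under 0.05 in each. The medians were −0.84 in Dp44mT and −1.20 in DFO. CDC20, an activator of the APC/C, stood at 9.89 and 9.43 in Dp44mT, 8.74 and 8.51 in DFO and 10.63 and 10.26 in control. Its DFO arrays were lowest, its Dp44mT arrays lay between and its control arrays were highest, with a difference of −0.79 in Dp44mT (adjusted p = 0.146) and −1.82 in DFO (adjusted p = 0.0523). BUB1B (BubR1), a checkpoint protein that holds CDC20 back, stood at 8.47 and 7.65 in Dp44mT, 9.08 and 8.25 in DFO and 10.29 and 10.08 in control. Its chelator arrays were all below the control arrays, and those of Dp44mT and DFO overlapped. The differences were −2.12 in Dp44mT (adjusted p = 0.0603) and −1.52 in DFO (adjusted p = 0.214). MAD2L1 (MAD2), another inhibitor of CDC20, stood at 10.71 and 10.29 in Dp44mT, 10.95 and 10.79 in DFO and 11.24 and 11.47 in control. TTK (MPS1), the kinase that starts the checkpoint signal, stood at 9.01 and 8.46 in Dp44mT, 8.87 and 8.11 in DFO and 9.50 and 9.35 in control. Neither gene passed, with −0.86 and −0.69 in Dp44mT and −0.48 and −0.94 in DFO, and their chelator arrays lay below both control arrays. The checkpoint kinase BUB1, the APC/C ubiquitin-conjugating enzyme UBE2C and securin (PTTG1) had differences of −1.02, −0.84 and −0.79 in Dp44mT and of −1.26, −1.20 and −1.08 in DFO.

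The chromosomal passenger complex corrects faulty attachments and is represented by 3 genes. AURKB, its kinase, stood at 9.32 and 9.45 in Dp44mT, 9.44 and 9.39 in DFO and 10.69 and 10.43 in control. It fell by 2.25-fold in Dp44mT (log2 −1.17, SE 0.18, adjusted p = 0.043) and had a difference of −1.14 in DFO, which did not pass (adjusted p = 0.075). INCENP, the scaffold, stood at 7.55 and 6.89 in Dp44mT, 7.37 and 6.93 in DFO and 7.62 and 7.48 in control, with Dp44mT array 1 between the control arrays. Its difference was −0.33 in Dp44mT and −0.40 in DFO, and survivin (BIRC5) had −0.57 and −0.74.

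Of 6 centromere and kinetochore genes, 3 fell in Dp44mT and none in DFO in limma, where 5 were lower at an unadjusted p under 0.05. The medians were −1.62 in Dp44mT and −1.11 in DFO. SPC25, a subunit of the NDC80 complex that binds microtubules, stood at 8.27 and 7.72 in Dp44mT, 9.07 and 8.52 in DFO and 10.07 and 9.89 in control. It fell by 3.96-fold in Dp44mT (log2 −1.99, SE 0.29, adjusted p = 0.0391), and the DFO difference was −1.18 (adjusted p = 0.191). Its partner NDC80 stood at 8.09 and 6.76 in Dp44mT, 8.99 and 8.04 in DFO and 9.75 and 9.35 in control. The 2 Dp44mT arrays lay far apart, and the gene did not pass in Dp44mT (−2.12, adjusted p = 0.101) or in DFO (−1.03, adjusted p = 0.507). CENPE, a kinetochore motor, stood at 6.73 and 6.48 in Dp44mT, 6.55 and 5.95 in DFO and 8.47 and 8.10 in control. A fall of 3.2-fold was called in Dp44mT (log2 −1.68, SE 0.28, adjusted p = 0.0484), and the DFO difference of −2.03 lay just outside the threshold (adjusted p = 0.0524). CENPF, a large kinetochore protein of G2 and mitosis, stood at 9.47 and 9.74 in Dp44mT, 9.85 and 9.84 in DFO and 11.13 and 10.78 in control. It fell by 2.55-fold in Dp44mT (log2 −1.35, SE 0.21, adjusted p = 0.0429) and had a difference of −1.11 in DFO (adjusted p = 0.109). CENPA, the histone H3 variant of centromeres, differed least, with 8.43 and 8.42 in Dp44mT, 8.04 and 8.53 in DFO and 8.90 and 9.09 in control. Its differences were −0.57 in Dp44mT and −0.71 in DFO, and NUF2, another subunit of the NDC80 complex, had −1.56 and −1.10.

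The group of spindle assembly, midzone and cytokinesis had 4 of 9 genes called in Dp44mT and 1 in DFO, with medians of −1.44 and −1.05. FAM83D, which brings casein kinase 1 to the spindle, stood at 7.25 and 7.22 in Dp44mT, 7.67 and 7.21 in DFO and 9.96 and 9.49 in control. It fell by 5.62-fold in Dp44mT (log2 −2.49, SE 0.26, adjusted p = 0.0191) and by 4.87-fold in DFO (log2 −2.28, SE 0.26, adjusted p = 0.0332). ASPM, a protein of spindle poles, stood at 7.97 and 7.43 in Dp44mT, 7.97 and 7.04 in DFO and 10.29 and 10.06 in control. The fall in Dp44mT was 5.58-fold (log2 −2.48, SE 0.37, adjusted p = 0.0413), while the larger DFO difference of −2.67 did not pass (adjusted p = 0.0543). DLGAP5 (HURP), which stabilizes fibres at the kinetochore, stood at 7.85 and 7.17 in Dp44mT, 8.33 and 7.71 in DFO and 9.88 and 9.67 in control. It fell by 4.82-fold in Dp44mT (log2 −2.27, SE 0.33, adjusted p = 0.0383), with −1.76 in DFO (adjusted p = 0.112). HMMR, a spindle-associated hyaluronan receptor, stood at 8.97 and 8.54 in Dp44mT, 8.85 and 8.53 in DFO and 10.37 and 10.23 in control. A fall of 2.93-fold was called in Dp44mT (log2 −1.55, SE 0.23, adjusted p = 0.0412), and DFO gave −1.61 (adjusted p = 0.0595). NUSAP1, a microtubule-binding protein, had the smallest DFO difference of all 48 genes, with 10.28 and 10.45 in Dp44mT, 10.56 and 10.67 in DFO and 10.85 and 10.57 in control. Its DFO arrays overlapped the control arrays (−0.09, 95% interval from −0.57 to 0.39), and the difference was −0.35 in Dp44mT. TPX2, the activator of Aurora A, the midzone bundler PRC1, anillin (ANLN) and ECT2 of the cleavage furrow lay between −1.44 and −0.77 in Dp44mT and between −1.05 and −0.51 in DFO, without a call.

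Chromosome structure was covered by 3 genes. TOP2A, the topoisomerase that disentangles sister chromatids, stood at 8.96 and 8.53 in Dp44mT, 9.62 and 8.94 in DFO and 10.78 and 10.49 in control. It fell by 3.69-fold in Dp44mT (log2 −1.88, SE 0.31, adjusted p = 0.0475) and had a difference of −1.35 in DFO, which did not pass (adjusted p = 0.169). NCAPG, a condensin subunit, stood at 9.32 and 8.94 in Dp44mT, 9.59 and 9.18 in DFO and 9.83 and 9.46 in control, and its DFO arrays overlapped the control arrays. The condensin genes SMC4 and NCAPG had differences of −0.73 and −0.51 in Dp44mT and of −0.29 and −0.26 in DFO, and neither was called.

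**Figure D2:**
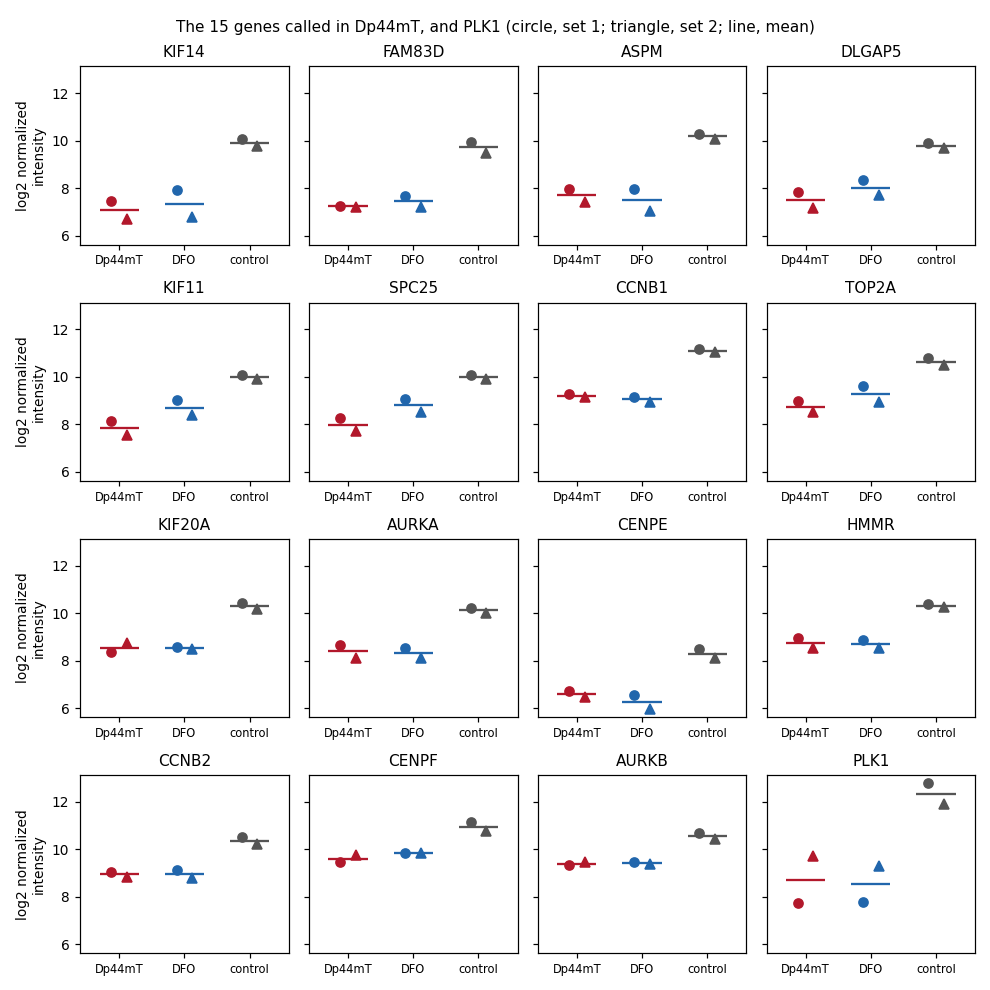
Log2 normalized intensity of the 15 genes called in Dp44mT, ordered by size of the fall, and of PLK1, on each array (circles, set 1; triangles, set 2) with group means as lines. In every panel the 4 chelator arrays lie below the 2 control arrays, and in PLK1 the set 2 chelator arrays lie above those of set 1.

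**Figure D3:**
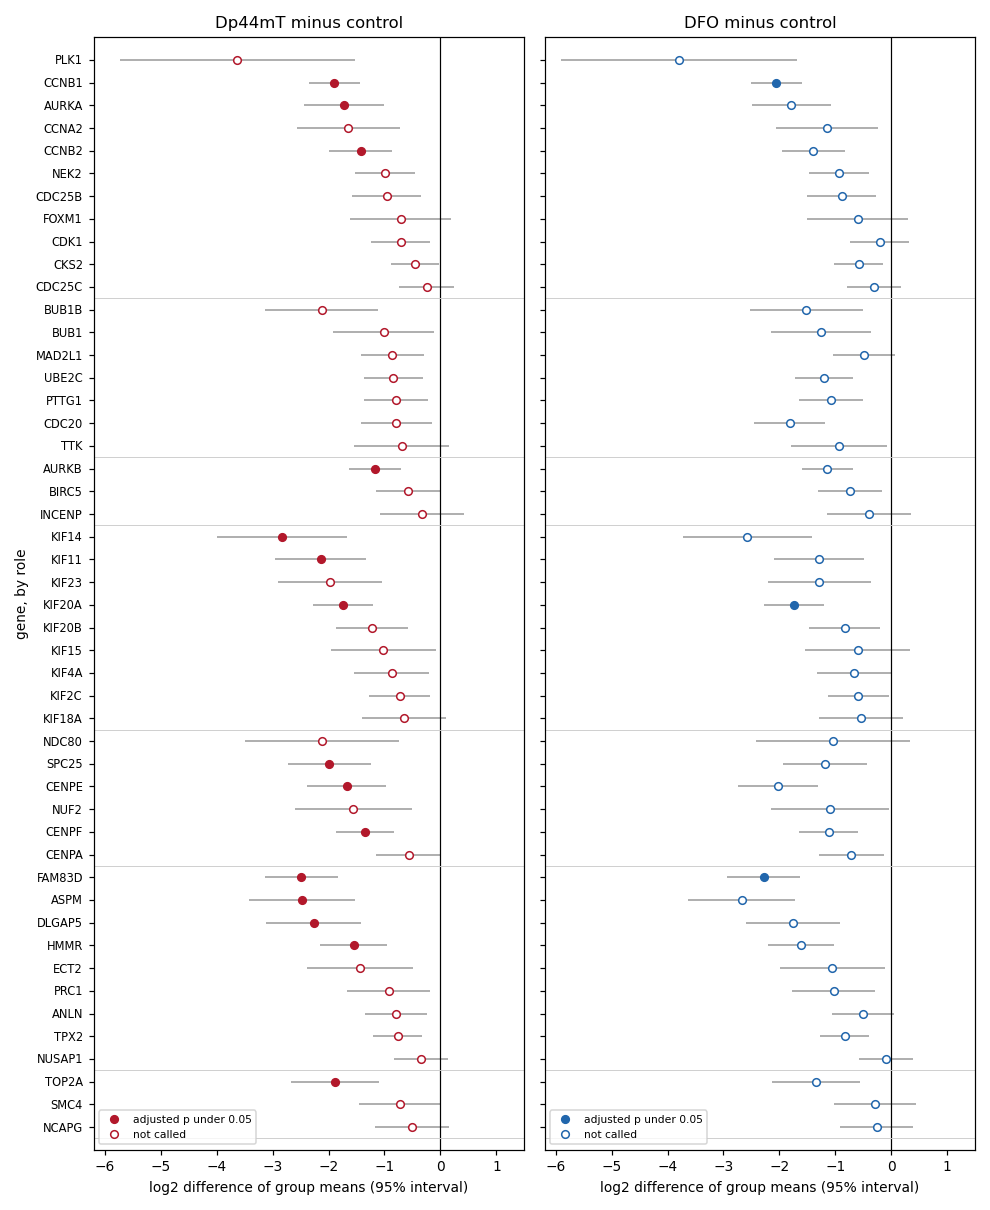
Log2 difference of group means with the 95% interval of limma's test (horizontal lines) for the 48 genes, Dp44mT minus control at left and DFO minus control at right, with filled points for an adjusted p under 0.05. All 48 points lie below 0 in both panels, from −3.63 to −0.25 in Dp44mT and from −3.80 to −0.09 in DFO.

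The calls of members depended on the model and on single arrays. Shares of all genes called in these fits are not given here. A fit of only the groups compared called 9 members in Dp44mT and 0 in DFO in limma (35 of 48 at an unadjusted p under 0.05), with all arrays of those groups in it. Leaving out an array of the third group gave this same result, since the array that remains of it adds no spread to the model. With an array of a compared group left out, the model of 3 groups called 0 members, in Dp44mT without either Dp44mT array or either control array (22 to 38 at an unadjusted p under 0.05) and in DFO without either DFO array or either control array (19 to 36). In DFO, the call of CCNB1 was also lost with array medians subtracted (adjusted p = 0.0509) and without scaling (0.229), over a range of 0.00228 to 0.282 across all alternatives. That of KIF20A was lost under both of these (0.0633 and 0.341), with a pseudocount of 1 (adjusted p = 0.0500021) and with the set number as a block (0.0664), over a range of 0.0127 to 0.431. FAM83D lost its DFO call without scaling (adjusted p = 0.118) and kept it with array medians subtracted (0.0302), over a range of 0.0157 to 0.354. In Dp44mT, FAM83D was called under every alternative other than leaving out 1 Dp44mT or control array.

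Other probe sets of the same genes were read in a fit of all 32242 probe sets above the filter. Of the 89 probe sets of the 48 genes, 80 were tested, 16 were called lower in Dp44mT and 4 in DFO (1.04% and 0.0403% of all probe sets), and 0 were called higher for either chelator (1.59% and 0.822% of all probe sets). The probe sets that represent AURKB and CENPE, called in Dp44mT in the fit of genes, were not called in this limma fit (adjusted p = 0.05004 and 0.0505). Below 0 were 77 of the 80 in Dp44mT and 78 in DFO. All tested probe sets of a gene lay below 0 for 21 of the 24 genes with several in Dp44mT and for 22 in DFO. The dimmer probe set of CCNB1 stood at 6.60 and 5.72 in Dp44mT, 7.32 and 6.36 in DFO and 9.76 and 9.55 in control. It fell in Dp44mT (log2 −3.50, SE 0.43, adjusted p = 0.0272) and was not called in DFO (−2.81, adjusted p = 0.0658). A dimmer probe set of CENPF fell with both chelators and stood at 6.44 and 6.42 in Dp44mT, 7.37 and 6.93 in DFO and 8.89 and 8.83 in control. Its differences were −2.43 in Dp44mT (adjusted p = 0.0137) and −1.71 in DFO (adjusted p = 0.0433). The exceptions above 0 were 1 probe set each of CDC25C and KIF20B with both chelators and of BIRC5 in Dp44mT, none of which was called. That of KIF20B stood at 7.35 and 9.77 in Dp44mT, 7.12 and 9.09 in DFO and 7.90 and 7.47 in control, so it was high on the set 2 chelator arrays alone, whereas the probe set that represents KIF20B stood at 8.10 and 7.57 in Dp44mT, 8.40 and 8.05 in DFO and 9.05 and 9.07 in control.

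The direct comparison of Dp44mT with DFO asked whether the 2 chelators differed at the doses used, 25 µM and 250 µM, which are not matched. None of the 48 genes and none of all 16868 was called in limma (0% of all genes in either direction). At an unadjusted p under 0.05 stood 3 of the 48, near the share of all genes (4.26%). These 3 are described below, and no difference between the chelators was called for them. CDC20 was 1.03 higher in Dp44mT on the log2 scale (95% interval from 0.40 to 1.66, unadjusted p = 0.00837, adjusted p = 0.922), with both Dp44mT arrays above both DFO arrays. KIF11 was lower by 0.85 (95% interval from −1.66 to −0.04, unadjusted p = 0.042, adjusted p = 0.922), and so was SPC25 by 0.80 (95% interval from −1.55 to −0.06, unadjusted p = 0.0395, adjusted p = 0.922). The groups did not overlap for 8 genes lower in Dp44mT (CDK1, MAD2L1, KIF2C, KIF11, CENPF, SPC25, NUSAP1 and SMC4, where 13.1% of all genes did so). They did not overlap for 4 higher (CKS2, CDC20, UBE2C and TPX2, where 14.4% of all genes did so). The count of lower genes was near the share of all genes, and that of higher genes was under it. The median of the 48 differences was −0.11, as compared to 0.02 over all genes. For CCNB1 the interval of the difference ran from −0.29 to 0.62 and for KIF20A from −0.53 to 0.54, while for PLK1 it ran from −1.94 to 2.27.

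**Figure D4:**
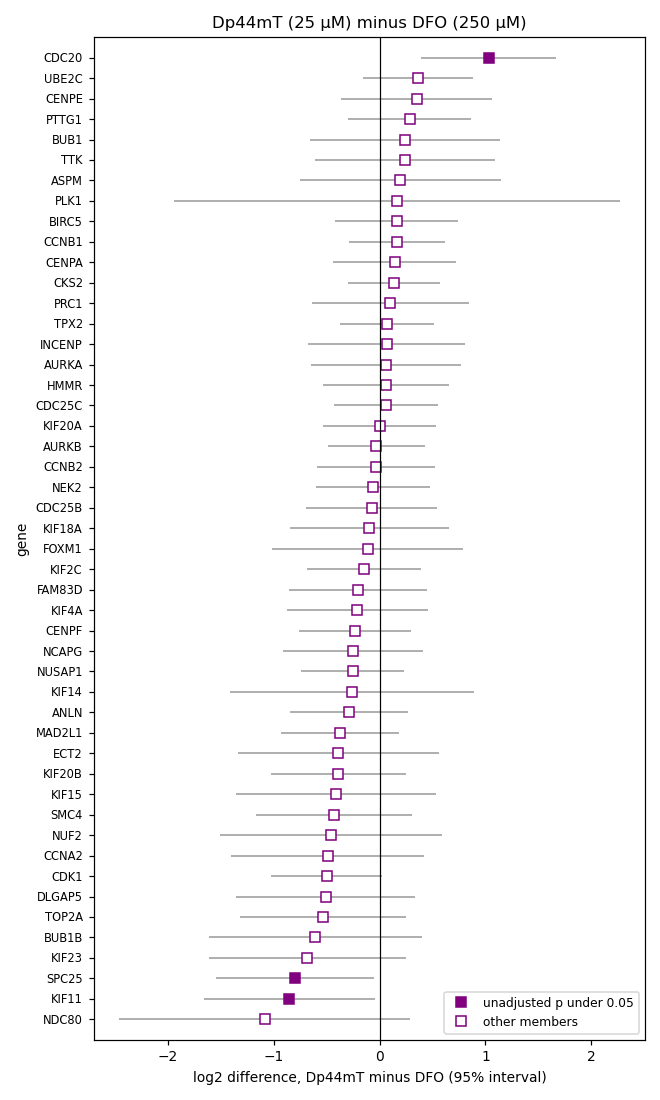
Log2 difference of Dp44mT (25 µM) minus DFO (250 µM) with 95% intervals for the 48 genes, ordered by size, with filled squares for an unadjusted p under 0.05. CDC20 stands highest at 1.03 and NDC80 lowest at −1.09, and the intervals of all but CDC20, KIF11 and SPC25 include 0.

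Of 46 other genes of G2 and mitosis listed by function, 45 were tested, and 5 fell in Dp44mT and none in DFO in limma (20 lower and 1 higher at an unadjusted p under 0.05). Of all genes, 1.46% were called lower in Dp44mT and 0.0593% in DFO, and 7.59% were lower in DFO unadjusted. The medians of the 45 were −0.84 in Dp44mT and −0.72 in DFO. The 5 were the CDK1 phosphatase gene CDKN3 (−1.66), CEP55 of the midbody (−1.86), the condensin gene NCAPD2 (−1.37), lamin B1 (LMNB1, −1.55) and MKI67, which encodes the proliferation antigen Ki-67 (−1.56), with adjusted p between 0.0263 and 0.0477. MKI67 stood at 8.30 and 8.57 in Dp44mT, 9.21 and 9.16 in DFO and 10.11 and 9.89 in control, lowest in Dp44mT. WEE1, the kinase that keeps CDK1 inactive, was the highest of the 45 and is named after its values were seen, with 11.16 and 10.27 in Dp44mT, 11.11 and 10.36 in DFO and 9.74 and 9.68 in control, and did not pass (1.00 in Dp44mT, adjusted p = 0.206, and 1.02 in DFO, adjusted p = 0.364).

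The 13 tested subunits and activators of the APC/C itself had medians of −0.74 in Dp44mT and −0.34 in DFO with no call in limma (8 and 4 lower at an unadjusted p under 0.05). At that unadjusted threshold, 15.9% of all genes were lower in Dp44mT and 7.59% in DFO. Of all genes, 1.46% and 0.0593% were called lower, so no call in this list or those that follow lies near those shares. Of 15 genes of DREAM, MuvB and NF-Y, none was called (5 and 3 lower unadjusted), and their medians were −0.45 and −0.13. Of the 15, 10 lay below 0 in Dp44mT and 11 in DFO. E2F5 was lowest with both chelators (−1.98 in Dp44mT and −1.55 in DFO), while E2F4 was highest in Dp44mT (0.80) and LIN37 in DFO (0.59). RBL2 (p130), singled out after the values were seen, stood at 8.36 and 7.82 in Dp44mT, 9.09 and 8.50 in DFO and 9.73 and 9.82 in control, below both control arrays on every chelator array, and did not pass (−1.68 in Dp44mT, adjusted p = 0.0536, and −0.98 in DFO, adjusted p = 0.267). The 27 genes of G1/S and DNA replication, which are active just before this phase, had medians of −0.66 in Dp44mT and −0.14 in DFO, with no call in limma (12 and 3 lower at an unadjusted p under 0.05, the 3 in DFO near the share of all genes). Between those genes and the 48 genes of G2 and mitosis, the difference in medians was not tested.

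**Figure D5:**
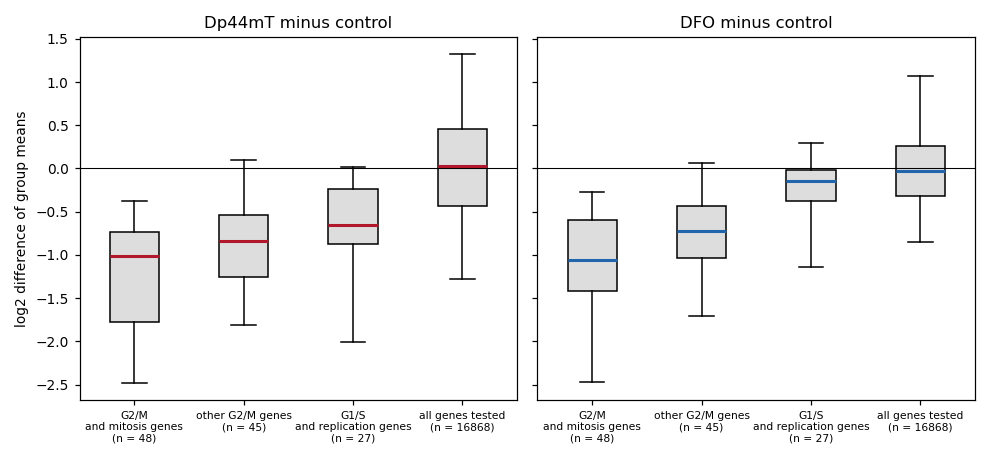
Log2 differences of the 48 genes, the other G2/M genes, the G1/S and replication genes and all genes tested, for Dp44mT minus control at left and DFO minus control at right (line, median; box, quartiles; whiskers, 5th to 95th percentile). The median of the 48 genes is the lowest in both panels, and that of the G1/S genes is −0.66 in Dp44mT and −0.14 in DFO.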

How the data were processed

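Deposited intensities of 54675 probe sets on 6 arrays came from the authors' use of Expression Console 1.1 (Affymetrix), as stated per the submitters' processing notes. The summarization and normalization options are not given in the sources used here. From these, log2(intensity + 16) was quantile normalized with limma 3.58.1 in R 4.3.3. Symbols came from the platform annotation (41097 probe sets with 1 symbol, 1801 with several, 11777 with none). A gene was represented by its brightest probe set on average, and genes under the 25th percentile of probe set means (5.55) were left out, leaving 16868. One limma model over the 3 groups, with 3 residual and 2.22 prior degrees of freedom, gave moderated two-sided tests with Benjamini-Hochberg adjustment. The number of arrays limits the precision, and the median 95% half-width of a difference was 0.64 on the log2 scale. Permuting 2 arrays against 2 allows no exact two-sided p under 0.333, so such tests were not used.

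Per-array values are given for members called in either comparison and, in each role group, for those with the largest and smallest differences, by a rule. Of the comparison lists, genes called in a comparison are named. Per-array values of KIF20B, RBL2, WEE1, MKI67 and single probe sets fall outside the rule and were chosen after their values were seen. The members and lists were chosen with earlier results of these data known. Nothing in the labels says that a set number is a batch, and same-numbered arrays did not deviate together in every pair of groups. The scripts were tested on simulated data. Alternatives in scaling, pseudocount, filter, probe set choice, model and arrays used were tried.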

Additional observations from a re-analysis of the deposited data

How the results depend on the processing

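All 48 genes lay below 0 for both chelators under every alternative run, except NUSAP1 in DFO, which ran from −0.232 to 0.0514 with 1 array left out, 0.0514 without control replicate 1. The counts of calls moved more. The share of all genes called can also change with the setting and is not given beside these counts. In Dp44mT 15 members were called lower, against 4 without scaling, 5 with a pseudocount of 1, 9 in a fit of only the groups compared, 27 with an intensity trend and 0 to 9 with 1 array left out, the 9 being the fit of only the groups compared, which leaving out an array of the third group equals. In DFO 3 were called lower, against 1 without scaling (PLK1), 10 with a pseudocount of 64, 7 with the filter at the median, 5 with probe sets averaged, 14 with an intensity trend, 0 in a fit of only the groups compared (35 at an unadjusted p under 0.05), 0 without the set 2 arrays of both chelators (34 unadjusted) and 0 with any 1 array left out, which for a Dp44mT array again equals the fit of only the groups compared. With the set number as a replicate block, 20 were called in Dp44mT and 8 in DFO; the deviations of same-numbered arrays correlated at 0.84 between Dp44mT and DFO, −0.35 between Dp44mT and control and −0.25 between DFO and control. The median difference in Dp44mT (−1.02) was −1.72 unscaled, −1.35 with array medians subtracted, −1.12 and −0.95 with pseudocounts of 1 and 64, −0.90 with probe sets averaged, −0.95 without the set 2 chelator arrays and −1.21 to −0.95 with 1 array left out. In DFO (−1.06) it was −1.40 unscaled, −0.84 without the set 2 chelator arrays and −1.24 to −0.84 with 1 array left out. The unscaled median of all genes was −0.50 in Dp44mT and −0.32 in DFO, which leaves −1.22 and −1.07 for the members relative to it. The median of Dp44mT minus DFO (−0.11) was −0.43 unscaled, −0.28 with array medians subtracted, −0.21 without the set 2 chelator arrays and −0.25 to 0.0215 with 1 array left out, 0.0215 without DFO replicate 1, and 0 members were called in limma in every setting, the replicate block included (7 unadjusted). Relative to the median of all genes, the Dp44mT minus DFO median of the members was −0.13 in the main fit. It was −0.19 both unscaled and with array medians subtracted. The cause was not tested.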
